A study of Homo sapiens with 8 samples.

Results

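TRAIL, the ligand encoded by TNFSF10, and its 5 receptor genes TNFRSF10A, TNFRSF10B, TNFRSF10C, TNFRSF10D and TNFRSF11B were followed across a parental Jurkat line and 3 lines made resistant to TRAIL. The members were chosen by gene symbol, and the array carried 7 probes for the 6 genes, of 22184 probes and 16578 gene symbols in all. Jurkat is a human T cell leukaemia line. The groups were untreated, TRAIL-sensitive Jurkat cells (WT) and 3 resistant subclones (TR1, TR2, TR3) that had been selected at 1000 ng/mL TRAIL for 12 weeks. All cells were grown in serum-supplemented IMDM, and RNA from biological duplicates of each line was hybridised to Illumina HumanRef-8 BeadChips, 8 arrays in all. No subclone grown without TRAIL was among the samples, so selection cannot be told apart from subcloning or time in culture, and each resistant line stands for 1 subclone.

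TRAIL binds as a trimer to the death receptors DR4 (TNFRSF10A) and DR5 (TNFRSF10B), whose cytoplasmic death domains recruit FADD and caspase-8 and start apoptosis. The decoy receptors DcR1 (TNFRSF10C), which is held in the membrane by a lipid anchor, and DcR2 (TNFRSF10D), whose death domain is truncated, bind TRAIL without passing on the death signal. Osteoprotegerin (TNFRSF11B) is a secreted receptor best known for binding RANKL that can also bind TRAIL. T cells make TRAIL themselves, and its gene responds to interferon. In the GRCh38.p14 annotation TNFRSF10B, TNFRSF10C, TNFRSF10D and TNFRSF10A follow one another as neighbouring protein-coding genes, while TNFSF10 and TNFRSF11B lie elsewhere.

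The upstream region of TNFSF10 is shown because TNFSF10 was the member that differed from WT at an adjusted p under 0.05 in limma. In the main fit that was so in TR1 and not in TR2 or TR3, and it depended on the arrays and processing used. The region covers the 250 bases before the annotated start, at chr3:172523431-172523680 on the minus strand (RefSeq, GRCh38.p14), written 5′ to 3′ along the gene. The capitals mark a match to the core of an interferon response element, searched as 2 GAAA half-sites with any 2 bases between them, which lies on the opposite strand at -187 to -178 from the start.
TNFSF10 upstream region: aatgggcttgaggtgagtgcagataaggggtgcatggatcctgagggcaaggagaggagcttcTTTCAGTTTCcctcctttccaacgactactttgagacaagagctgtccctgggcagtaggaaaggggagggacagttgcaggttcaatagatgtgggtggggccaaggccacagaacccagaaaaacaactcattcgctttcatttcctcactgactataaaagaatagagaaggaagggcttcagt
Both strands were searched for 5 motifs, none of which overlapped another here. The interferon core matched once, and 3.02% of the 35116 upstream regions of this length held it. TATAAA, the TATA box, matched once at -31 to -26, against 10.7% of all regions. The letters of a STAT element (TTCNNNGAA, in 6.57% of regions), a FOXO element (GTAAACA, 2.98%) and a GC box (GGGCGG, 42.6%) were not in this window. A match describes the letters and is not a measured binding site.

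Detection split the members. A probe counted as detected on an array where the deposited detection p-value was under 0.05. TNFSF10 and 1 of the pair of TNFRSF10B probes were detected on 8 of 8 arrays, and the TNFRSF10C probe on 5 of 8. The probes of TNFRSF10A, TNFRSF10D and TNFRSF11B and the other TNFRSF10B probe were detected on 0 of 8. Of all probes on the chip, 51.3% were detected on all 8 arrays and 33% on none. The T cell identity of the lines was checked with 11 markers, among them CD3E, CD3G, CD247, CD2 and LCK, and all 11 were detected on 8 of 8 arrays. For a marker gene with several probes, the probe detected on the most arrays was counted. Markers of other cell types gave a mixed picture. Of the B cell markers, MS4A1 was detected on 0 arrays and CD79A and CD79B on all 8. Of the monocyte markers CD14, CSF1R and ITGAM were detected on 0 arrays and LYZ on 2, and of the natural killer cell markers NCAM1 was detected on 8, NCR1 on 3 and KLRD1 on 1. The red cell gene HBB was detected on 0. Of the epithelial markers KRT8 was detected on 0, EPCAM on 1 and KRT18 on 3, and of the fibroblast markers COL1A2 on 0, DCN on 1 and COL1A1 on 6. All samples were labelled as Jurkat lines, and the source of these marker signals was not tested.

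**Figure D1:**
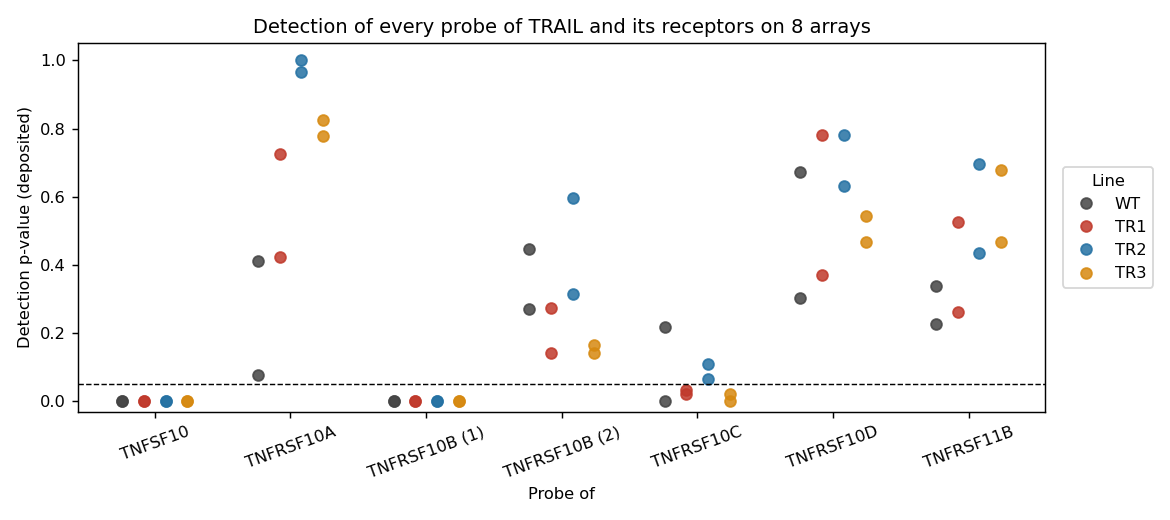
Deposited detection p-value (y axis, 0 to 1) of each of the 7 probes (x axis), with 1 point per array coloured by line and a dashed line at 0.05. The TNFSF10 probe and the first TNFRSF10B probe lie at 0 on all 8 arrays, TNFRSF10C straddles the line, and the other 4 probes lie above it on all 8 arrays.

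Among the death receptors, the DR4 gene TNFRSF10A was not detected in any line. Its raw intensity, the summarised linear signal before normalisation, was 59.2 and 55.9 on WT arrays A and B. It was 57.6 and 50.03 on the TR1 arrays, 50.5 and 47.5 on the TR2 arrays and 53.1 and 53.4 on the TR3 arrays. The detection p-value came closest to the threshold on WT array B, at 0.076, and ran to 1 on TR2 array B. The TR2 arrays, at 0.967 and 1, had the highest detection p-values for this probe. In raw intensity TR1 array A lay within the WT range. After normalisation every clone array (log2 level 4.18 to 4.37) lay below both WT arrays (4.39 and 4.65), all of them not above background. Among all tested probes, 21% had both TR1 arrays below both WT arrays, and 19.3% had both TR3 arrays below them. The share with every clone array below both WT arrays is not given, so nothing is read from this order. Since the probe was not above background in either group of any comparison, no fold change is given for it.

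The DR5 gene TNFRSF10B was read by 2 probes, both annotated to the same transcript record, and they disagreed. The detected probe had raw intensities of 440 and 574 on WT arrays A and B, 443 and 486 in TR1, 421 and 456 in TR2 and 485 and 554 in TR3. TR2 array A lay below both WT arrays, and both TR2 arrays lay below both TR3 arrays in raw intensity but overlapped them after normalisation. The other ranges overlapped. The second probe stayed between 51.7 and 66.4 with detection p-values from 0.141 to 0.598, and was not above background on any array. The DR5 transcript is therefore described from the first probe.

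On the normalised log2 scale (background corrected, then quantile normalised) the detected TNFRSF10B probe stood at 8.86 ± 0.36 in WT (mean ± SD, n = 2 arrays), 8.84 ± 0.14 in TR1, 8.77 ± 0.18 in TR3 and 8.65 ± 0.20 in TR2. The WT arrays differed from each other by 0.50, more than any pair of line means. Its log2 change from WT was -0.02 in TR1, with a 95% interval of -0.42 to 0.38. It was -0.22 in TR2 (-0.62 to 0.18) and -0.09 in TR3 (-0.49 to 0.31). None was called, with limma's adjusted p of 0.97, 0.69 and 0.92. These intervals span 0.75-fold to 1.30-fold in TR1, 0.65-fold to 1.14-fold in TR2 and 0.71-fold to 1.24-fold in TR3. With the replicate block, on the authors' processed values, the interval was narrower: the TR2 change was -0.20 (95% interval -0.38 to -0.01, unadjusted p = 0.036) and was not called (limma's adjusted p = 0.26). Leaving out WT array A gave -0.27, -0.47 and -0.34 in TR1, TR2 and TR3, and leaving out WT array B gave 0.23, 0.03 and 0.16, with no call either way.

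Of the decoy receptors, the DcR1 gene TNFRSF10C was at the edge of detection. Its raw intensity was 75.2 on WT array A, which detected it, and 52.4 on WT array B, which did not (detection p-value 0.217). It was 71.2 and 66.0 in TR1 and 74.0 and 72.4 in TR3, detected on both arrays of each. It was 68.1 on both TR2 arrays, neither of which detected it (0.109 and 0.0652). At a detection threshold of 0.01 it was detected on 2 of 8 arrays.

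The normalised level of TNFRSF10C was 4.77 ± 0.40 in WT (SD, n = 2), 4.94 ± 0.02 in TR1, 4.89 ± 0.01 in TR3 and 4.63 ± 0.05 in TR2. The arrays of all 3 clones lay between the 2 WT arrays. Its change from WT was 0.17 ± 0.16 (SE) in TR1 and 0.12 ± 0.16 in TR3, with adjusted p of 0.66 and 0.86 in limma. Neither TR2 array detected the probe, so no change is given for TR2. The probe entered the tests through TR1 and TR3, the lines in which both arrays detected it, so the low place of TR2 is a description and no evidence of a difference. Without WT array A the WT array left did not detect the probe, and no change can be given. Without WT array B the changes were -0.12 in TR1 and -0.16 in TR3, so the sign of both rested on that undetected array.

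The DcR2 gene TNFRSF10D and the osteoprotegerin gene TNFRSF11B were not detected in any line. TNFRSF10D had raw intensities of 54.6 and 51.2 in WT, 58.8 and 49.1 in TR1, 57.6 and 54.8 in TR2 and 58.3 and 57.9 in TR3, with detection p-values from 0.304 to 0.783. TNFRSF11B had 60.6 and 52.1 in WT, 60.3 and 52.1 in TR1, 56.7 and 59.3 in TR2 and 60.0 and 55.4 in TR3, with detection p-values from 0.228 to 0.696. For TNFRSF11B the ranges of all 4 lines overlapped. For TNFRSF10D both WT arrays read below both TR2 and both TR3 arrays in raw intensity, all of them not above background, and the ranges overlapped after normalisation. These arrays put no level on either transcript, which differs from showing that it is absent.

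The ligand gene TNFSF10 was the member with a called difference from WT, in TR1 in the main fit. Its raw intensity was 94.5 and 110.1 on WT arrays A and B, 78.6 and 69.1 on the TR1 arrays, 102.4 and 95.7 on the TR2 arrays and 83.7 and 80.1 on the TR3 arrays. TR1 and TR3 lay below both other lines on every array, and the TR2 arrays lay within the WT range. The signal was low: the median probe on these arrays had a raw intensity of 68.1 to 83.0, although the detection p-value of TNFSF10 was 0 on all 8 arrays.

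After normalisation TNFSF10 stood at 6.01 ± 0.39 in WT (mean log2 level ± SD, n = 2), 5.76 ± 0.04 in TR2, 5.23 ± 0.05 in TR3 and 5.19 ± 0.14 in TR1. Both arrays of TR1 and both of TR3 were below both WT arrays, as were 21% and 19.3% of all 13130 tested probes in those comparisons. In TR2 the levels of 5.79 and 5.74 came just above WT array A (5.73) and well below WT array B (6.28). The difference between the WT arrays, 0.55, was wider than that within TR1 (0.20), TR3 (0.07) or TR2 (0.05).

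**Figure D2:**
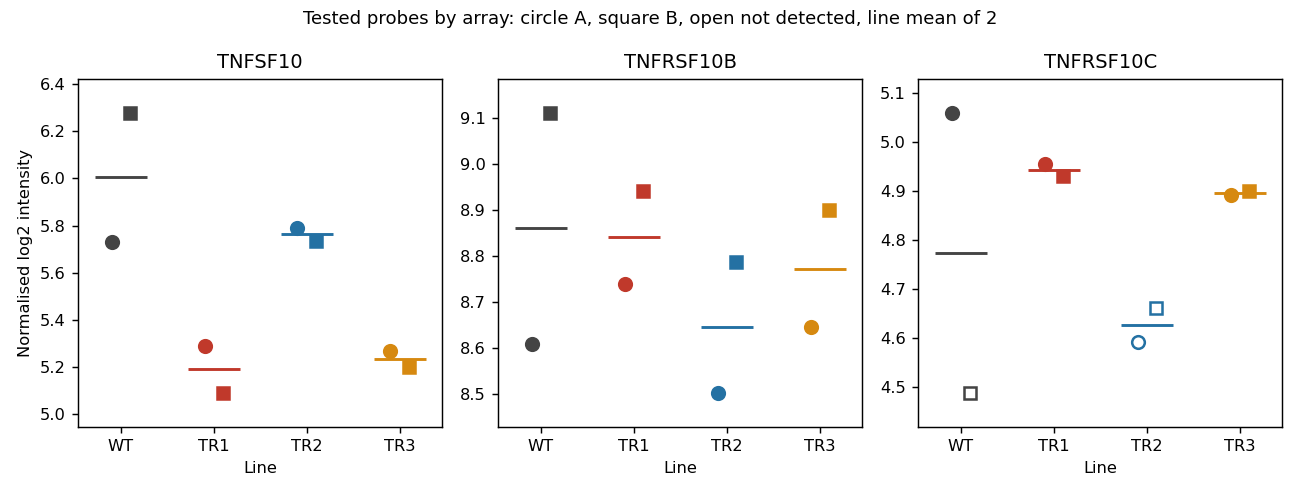
Normalised log2 intensity (y axis) of the 3 tested probes in each line (x axis), with circles for array A, squares for array B, open symbols where the probe was not detected and a bar at the mean of 2 arrays. TNFSF10 is lowest in TR1 and TR3, TNFRSF10B overlaps in all 4 lines, and for TNFRSF10C the clone arrays lie between the WT arrays.

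TNFSF10 fell by 0.82 ± 0.17 on the log2 scale in TR1 (SE, n = 2 arrays per line), to 0.57-fold of WT (95% interval 0.44 to 0.73). That was called at an adjusted p of 0.037 in limma. It made 1 of the 3 tested member probes called lower in TR1, where 1.65% of all tested probes were called lower and 2.25% in either direction. In TR3 its change of -0.77 ± 0.17, or 0.59-fold (0.45 to 0.76), was of like size and was not called (adjusted p = 0.14). In TR2 its change was -0.24 ± 0.17, or 0.85-fold (0.65 to 1.09), with an adjusted p of 0.62.

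The fits above did not use any pairing of the samples. The numbered replicates of the authors' processed values pair the samples. Without a block those values gave TNFSF10 changes of -0.45 in TR1 and -0.43 in TR3, neither called (limma's adjusted p = 0.056 and 0.19). A fit of the same values with the replicate number as a block changed both calls. In that fit TNFSF10 was lower in TR1 by -0.45 ± 0.10 (adjusted p = 0.0062) and in TR3 by -0.43 ± 0.10 (adjusted p = 0.026), both called. TR2 stood at -0.15 ± 0.10 (adjusted p = 0.47). With the block, 5.24% of all tested probes were called lower in TR1 and 1.32% in TR3. The block fit did not call the detected TNFRSF10B probe in any clone, where it called 3.88% of all tested probes in TR2. TNFRSF10C was not called in TR1 or TR3, and no test is read for it in TR2.

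Each of the 8 arrays was left out in turn. The TR1 call for TNFSF10 held when WT array A was the one left out and was lost for each of the others (adjusted p from 0.058 to 0.18). With WT array B as the sole WT array the changes were -1.09 in TR1 and -1.04 in TR3, both called (adjusted p = 0.011 and 0.029), and -0.51 in TR2. With WT array A as the sole WT array they were -0.54, -0.49 and 0.03 in TR1, TR3 and TR2, with no call (adjusted p = 0.14, 0.38 and 0.97). Without background correction, and on the authors' values, the TR1 change was -0.45 (adjusted p = 0.056). TR1 and TR3 were thus below WT with either WT array, while the sign in TR2 depended on which was used.

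**Figure D3:**
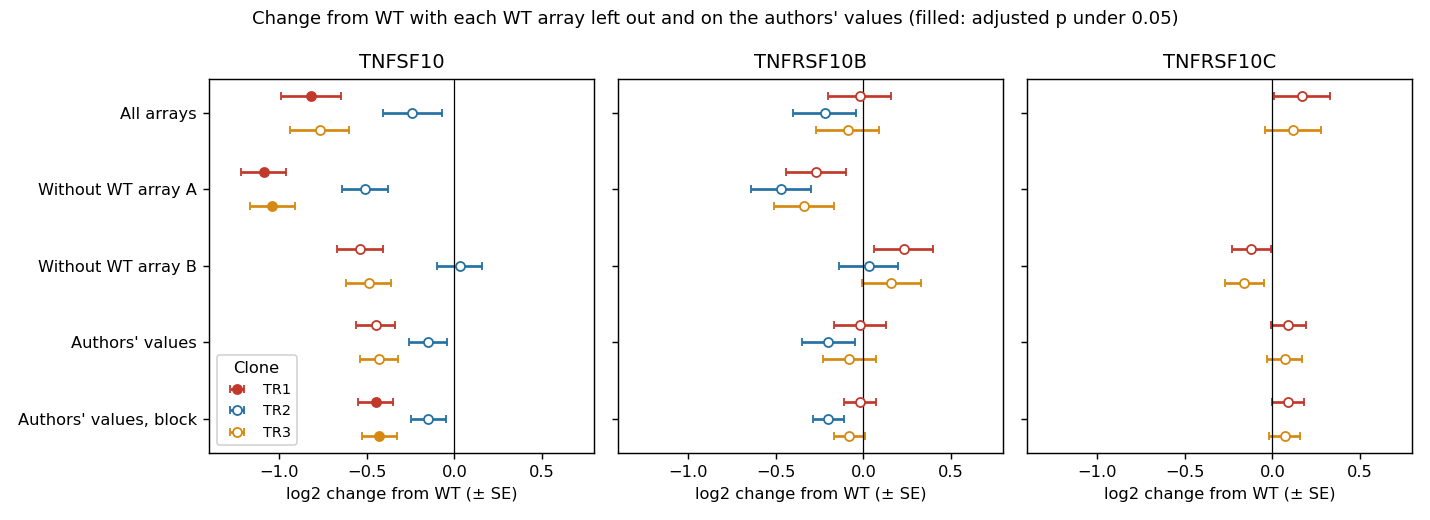
Change from WT on the log2 scale (x axis, with SE bars) of TNFSF10, TNFRSF10B and TNFRSF10C in the 3 clones, for all arrays, without each WT array, and on the authors' values without and with the replicate block (y axis); filled symbols have an adjusted p under 0.05. TNFSF10 in TR1 and TR3 lies below 0 in every row, while TNFRSF10B crosses 0 when the WT array changes. TNFRSF10C is drawn for TR1 and TR3 and where a WT array detected it.

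Across the mean of the 3 clones, neither TNFSF10 nor the detected TNFRSF10B probe was called by limma in the main fit. TNFSF10, at -0.61 ± 0.13 (adjusted p = 0.14), had an unadjusted p under 0.05. TNFRSF10C is left out here, since TR2 did not detect it. Of all tested probes, 0.396% were called in that comparison. With the replicate block the mean change of TNFSF10 was -0.34 ± 0.08 and was called (adjusted p = 0.024), where 2.06% of all tested probes were called lower. The 6 clone arrays are 2 from each of 3 subclones, and with the clone as a random block the mean change was -0.61 ± 0.22 and was not called (limma's adjusted p = 0.96). In the main fit of TR2 against WT, neither TNFSF10 nor the detected TNFRSF10B probe was called or had an unadjusted p under 0.05. Of all tested probes, 0.632% were called there. In the main fit of TR3 against WT, 0 of the 3 tested member probes were called, against 0.297% of all tested probes. Of the 3, 1 had an unadjusted p under 0.05. The comparisons with WT share the same WT arrays, so a high or low WT array moves all of them together.

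The clones can be set against each other without WT. Both TR2 arrays were above both TR1 arrays for TNFSF10, as were 22.8% of all tested probes, and both TR3 arrays were below both TR2 arrays, as were 20.7%. TR2 exceeded TR1 by 0.57 ± 0.17 (log2, SE; 1.49-fold) with an adjusted p of 0.092, and TR3 was below TR2 by -0.53 ± 0.17 with an adjusted p of 0.26. TR3 and TR1 differed by 0.04 (95% interval -0.33 to 0.41, adjusted p = 0.94). Over the 3 clones neither TNFSF10 nor the detected TNFRSF10B probe passed the moderated F test, against 3.71% of all tested probes. TNFSF10 had an unadjusted p under 0.05 in it. The adjusted p of TNFSF10 in it was 0.13.

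The spread shared by all 4 lines in that test includes the wide gap between the WT arrays. Fitted on the 6 clone arrays alone, TNFSF10 differed among the clones (adjusted p = 0.035, moderated F test), and without either WT array the adjusted p was 0.036. With the replicate block the F test had an adjusted p of 0.07. On the arrays of the 2 lines alone the adjusted p was 0.045 for TR2 against TR1 and 0.096 for TR3 against TR2, and with the replicate block it was 0.056 and 0.14. In descending order the TNFSF10 levels were WT, TR2, TR3 and TR1; of the neighbours in that order, WT and TR2, TR2 and TR3, and TR3 and TR1 were not called different when all 8 arrays were used.

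Receptor levels were not shown to differ among the clones. For TNFRSF10B the adjusted p of the F test was 0.79, and TR2 against TR1, the widest pair, differed by -0.20 (95% interval -0.60 to 0.20). For TNFRSF10C no test is read, since TR2 did not detect it.

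The authors' processed intensities, which carry the replicate numbers, gave TNFSF10 as 93.7 and 118.3 in replicates 1 and 2 of WT. They gave 79.7 and 74.6 in TR1, 96.0 and 93.9 in TR2, and 79.1 and 77.4 in TR3. WT was the line whose replicate 2 was the higher, by 0.34 on the log2 scale, while in the clones replicate 2 was lower by -0.10, -0.03 and -0.03. TNFRSF10B behaved in another way: its intensity was 431 and 593 in WT, 468 and 531 in TR1, 403 and 482 in TR2 and 440 and 518 in TR3. Replicate 2 was the higher in 4 of 4 lines, by 0.18 to 0.46 on the log2 scale. What the replicate numbers stand for is not given in the sources used here.

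**Figure D4:**
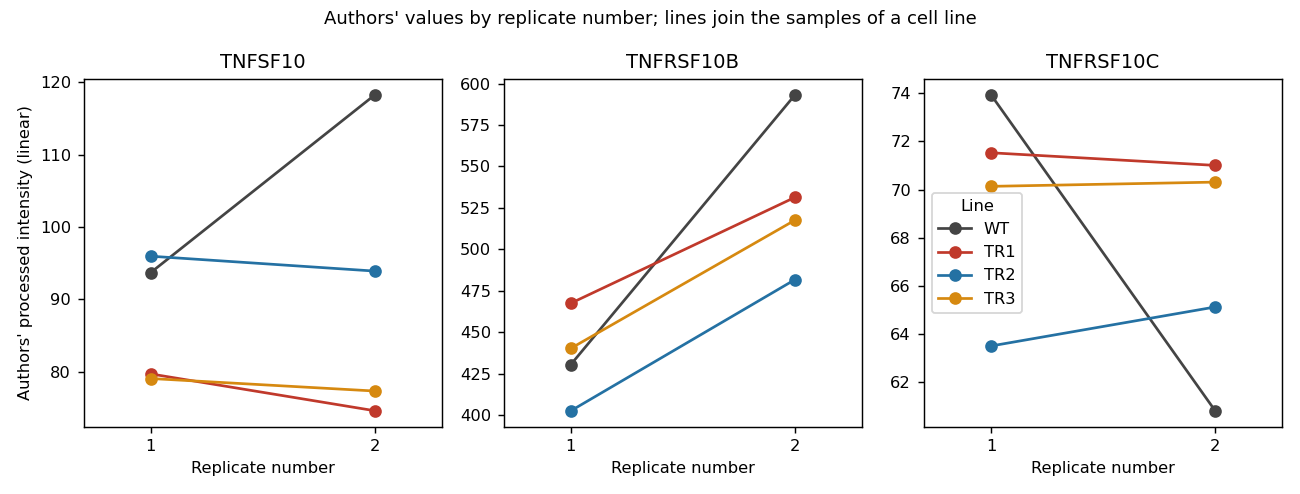
Authors' processed intensity (y axis, linear, not starting at 0) of TNFSF10, TNFRSF10B and TNFRSF10C in replicates 1 and 2 (x axis), with a line joining the samples of each cell line. TNFRSF10B is higher in replicate 2 of all 4 lines, whereas TNFSF10 is higher in replicate 2 of WT and lower in replicate 2 of the 3 clones.

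The 5 tested genes whose pattern was nearest to that of TNFSF10 were TENT5A, GAGE12J, PROK2, AKAP7 and HLF. Nearness was the root mean square difference in log2 level over the 8 arrays, each gene centred on its WT mean, and it was 0.158, 0.164, 0.174, 0.176 and 0.183. Since these genes were picked for this pattern, their values are a description with no test. PROK2, which encodes the secreted peptide prokineticin 2, stood at -1.09, -0.19 and -0.82 from WT on the log2 scale in TR1, TR2 and TR3. TENT5A, a poly(A) polymerase gene, stood at -0.94, -0.14 and -0.67. AKAP7, which encodes an anchor of protein kinase A, stood at -0.88, -0.31 and -0.58. In all 3 the change in TR2 was the smallest. GAGE12J, one of a family of near-identical genes that a probe may not tell apart, was detected on both WT arrays and 1 TR2 array. HLF, a transcription factor gene, was detected on both WT arrays and 0 clone arrays. No change is given for either in the clones that did not detect it.

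Beyond the receptors, 72 genes of the pathway in 6 lists were examined, and 53 of them were tested. Of all 10681 tested genes, 2.36% were called in TR1, 0.646% in TR2 and 0.318% in TR3, so a list of this size with 0 genes called is near the background and nothing is read from it. Of the death-inducing complex, 5 genes were tested, and CFLAR, which encodes the caspase-8 inhibitor c-FLIP, was the one called: it rose by 0.98 ± 0.12 in TR1 (adjusted p = 0.0023) and fell by 0.79 ± 0.12 in TR2 (0.017). In TR2 CFLAR was no longer called when any single TR2 or WT array was left out (0.05 to 0.16). CASP10, a caspase-8 relative, stood at 0.50 ± 0.12 in TR1 (0.073). TRADD, an adaptor of the TNF receptor, stood at 0.34 ± 0.15 in TR1 (0.30), and CASP8, the initiator caspase, at -0.05, 0.08 and 0.01 in TR1, TR2 and TR3. The list's median change was 0.34 in TR1, 0.02 in TR2 and 0.01 in TR3, beside 0.01, -0.002 and 0.004 over all 10681 tested genes.

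In the mitochondrial and executioner arm 0 of 14 tested genes were called in any clone, beside 0.318% to 2.36% of all tested genes, with median changes of 0.005, -0.05 and -0.06 in TR1, TR2 and TR3. The anti-apoptotic gene MCL1 stood at -0.30 ± 0.12 in TR3 (adjusted p = 0.46) and BCL2 at 0.21 ± 0.11 (0.57). CYCS, which encodes cytochrome c, stood at 0.22 ± 0.15 in TR1 (0.51). CASP6 lay between -0.15 and -0.06 in the 3 clones.

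Glycosylation and trafficking genes bear on how much death receptor reaches the surface, and 0 of 12 tested were called against WT in any clone, again beside 0.318% to 2.36% of all tested genes (medians -0.03 in TR1, -0.08 in TR2, -0.02 in TR3). C1GALT1, the galactosyltransferase that extends O-linked glycans, stood at 0.45 ± 0.11 in TR1 (adjusted p = 0.069), -0.15 in TR2 and -0.11 in TR3. It differed among the clones (adjusted p = 0.019, moderated F test), with TR2 below TR1 by -0.60 ± 0.11 (0.012) and TR3 below TR1 by -0.56 ± 0.11 (0.037). That difference was lost without either TR1 array, either TR2 array or TR3 array B (0.051 to 0.17). GALNT1, which starts O-linked glycans, had changes of -0.28, -0.17 and -0.24 in TR1, TR2 and TR3, without a call. CAV1, which encodes a coat protein of caveolae, was detected on both WT arrays and 0 clone arrays, so no change is given for it. AP2B1, of the clathrin adaptor, stood at 0.33 ± 0.12 in TR3 (0.44).

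Of the regulators of TNFSF10 transcription 0 of 11 tested were called in any clone, which is near the same background, with medians of 0.11, 0.14 and 0.11 in TR1, TR2 and TR3. In the same order of clones SP1, which binds GC boxes, stood at 0.32, 0.21 and 0.27, FOXO3 at 0.33, 0.21 and 0.11, IRF1, an interferon-induced factor, at 0.29, 0.09 and 0.20, and NFATC1 at -0.21, -0.21 and 0.05. Of the regulators of the DR5 gene 0 of 5 tested were called, also near it (medians 0.09, 0.10 and 0.04). ATF3, a stress-induced factor, stood at -0.68 ± 0.37 in TR1 (adjusted p = 0.41), DDIT3, which encodes CHOP, at 0.26 ± 0.11 in TR2 (0.41), CEBPB at 0.20 ± 0.11 in TR2 (0.53) and ATF4 at 0.12 ± 0.12 in TR1 (0.68).

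Among 6 other tested interferon-stimulated genes, 2 were lower in TR1, 1 in TR2 and 1 in TR3, with medians of -0.16, 0.03 and -0.13. Of all tested genes 1.77%, 0.272% and 0.243% were called lower in the 3 clones. IFIH1, the double-stranded RNA sensor MDA5, fell by 0.68, 0.79 and 0.82 (each ± 0.10) in TR1, TR2 and TR3 (adjusted p = 0.0087, 0.0088 and 0.011). IFIT2, an interferon-induced antiviral protein gene, fell by 0.70 ± 0.14 in TR1 (0.037) and stood at -0.59 ± 0.14 in TR2 (0.13) and -0.31 ± 0.14 in TR3 (0.51). IFI44 and IFITM1 lay between -0.18 and 0.16 in all clones. Each IFIH1 call was lost without WT array B or either array of its clone (0.057 to 0.14), and that of IFIT2 without either WT array (0.071 and 0.19) among others. Without background correction the IFIH1 changes were -0.38, -0.43 and -0.44 in that order of clones (adjusted p = 0.033, 0.034 and 0.05), and the last was no longer called. The IFIH1 call in TR3 was also lost on the TR3 and WT arrays alone (0.075), and IFIT2 in TR1 moved to -0.38 without background correction (0.058). In TR2 the change from WT in the main fit was -0.79 ± 0.10 for IFIH1 and -0.24 ± 0.17 for TNFSF10. Whether these changes differ from each other was not tested.

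**Figure D5:**
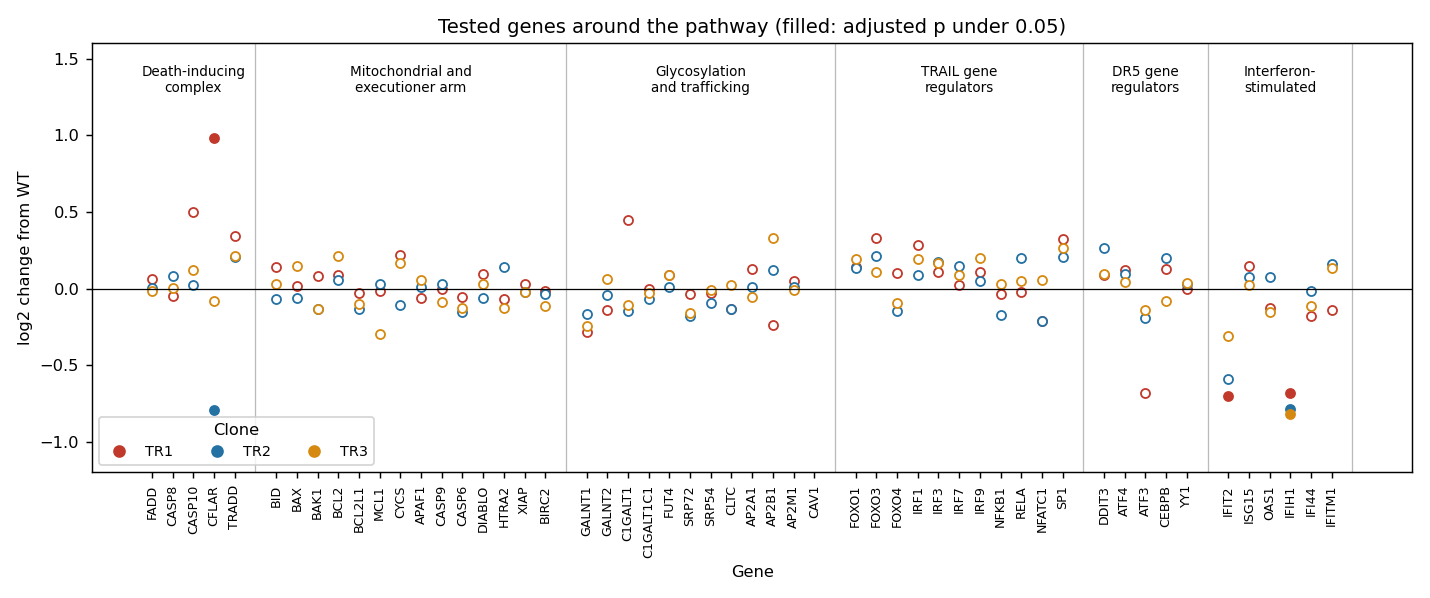
Log2 change from WT (y axis) of each tested gene of the 6 lists (x axis), with 1 point per clone, filled where the adjusted p is under 0.05. Filled points belong to CFLAR (TR1 and TR2), IFIH1 (all 3 clones) and IFIT2 (TR1), and most other genes lie close to 0. CAV1 has no points because no clone detected it.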

How the data were processed

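Per the file headers, the authors deposited a raw table that gives a linear probe intensity and a detection p-value for every array. They also deposited processed intensities, linear with like medians (77.2), which rank probes as a raw column of the same line does (rank correlation 1). How these were made is not stated. Limma is named in the submitters' processing notes, with no version. The scanner software and any earlier background step are not given here.

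Raw intensities were corrected in limma 3.58.1 (R 4.3.3) by normexp from the detection p-values (offset 16), quantile normalised and then log2 transformed. A probe was tested if both arrays of any 1 line detected it at p under 0.05, which left 13130 probes and 3 of the 7 member probes. One mean per line was fitted over 8 arrays with lmFit and eBayes (4 residual degrees of freedom, 5.65 from the prior). The call threshold was 0.05 on p adjusted by Benjamini-Hochberg over all tested probes. The number of arrays limits the precision.

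Symbols came from the platform annotation, updated by gene identifier, and the probe of highest mean stood for a listed gene. Raw columns carry letters A and B, which were not matched to replicate numbers, and 0 columns lacked a line. The check for pairing used the authors' values. Replicate 2 minus replicate 1 correlated between every 2 of the lines (6 pairs, r from 0.28 to 0.43 across genes, which are not independent). The numbers were therefore taken as pairs in the block fit. The main fit, on the raw columns, did not use the pairs. Named were all members, list genes that were called or had the 4 largest changes of their list, and the 5 genes nearest to TNFSF10. The members and lists were chosen with earlier results of these data known. The alternatives tried concern background correction, normalisation, the filter on dim probes, the prior, array weights, the arrays fitted and each array left out.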

Additional observations from a re-analysis of the deposited data

Results flagged for a closer look

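A difference among the 3 clones that passed its own test (moderated F test in limma) drew attention to 2 of the 53 tested genes of the pathway lists. Of all tested probes 3.71% passed this test, so the count is near the background and nothing is read from it. Neither TNFSF10 nor the detected TNFRSF10B probe passed it. CFLAR had an adjusted p of 9.1e-05, with TR2 below TR1 by -1.78 ± 0.12 (SE) and TR3 between them. C1GALT1 had an adjusted p of 0.019, with both TR2 and TR3 below TR1.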

How the results depend on the processing

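The TNFSF10 change in TR1 kept its sign under every alternative run and its call under 5 of 10. It was not called at -0.45 on uncorrected intensities or the authors' own (adjusted p = 0.056 each), at -0.48 with an offset of 50 (0.053), or at -0.82 without a filter on dim probes or on the TR1 and WT arrays alone (0.11 each). On the authors' values with the replicate block it was -0.45 (0.0062), the same change as on those values without the block. Set against those values without it, the block added calls of TNFSF10 in TR1, in TR3 (-0.43) and in the mean of the clones (-0.34). It changed no other member call. Among the clones the F test of TNFSF10 reached 0.035 on the clone arrays alone. With 1 array left out at a time, the TNFSF10 change ran from -1.09 to -0.54 in TR1, -0.51 to 0.03 in TR2, -1.04 to -0.49 in TR3 and -0.88 to -0.33 in the mean, and its F test from 0.036 to 0.38. TR3 against TR1 ran from -0.06 to 0.15. The lone array of a line was assumed to vary like the others. TNFRSF10B ran from -0.27 to 0.23, -0.47 to 0.03, -0.34 to 0.16 and -0.36 to 0.14 in TR1, TR2, TR3 and the mean, and from -0.20 to 0.06 in TR3 against TR1 and -0.01 to 0.27 in TR3 against TR2. TNFRSF10C ran from -0.12 to 0.18 in TR1 and -0.16 to 0.13 in TR3. No value is given for TR2 or without WT array A, where the probe was not detected. The fitted TNFRSF10C values for the mean ran from -0.24 to 0.06. That mean includes the TR2 arrays, which did not detect the probe, so no change is read from it. Without WT array B the sign turned for TNFSF10 in TR2 and for the changes of TNFRSF10B from WT given here. The sign of TNFRSF10C in TR1 and TR3 turned without that array too. Without TR1 array A or TR3 array A the sign turned for TNFRSF10B in that clone.

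Over all probes 295, 83, 39 and 52 were called in TR1, TR2, TR3 and the mean of the clones, and 487 among the clones. With the replicate block there were 1151, 510, 296, 394 and 1675. Without a filter there were 169, 46, 17 and 15 against WT. With a trended robust prior there were 127 in TR2, 59 in TR3 and 84 in the mean. On the arrays compared alone there were 166 in TR1 and 20 in TR3. The mean gave 19 with array weights and 6 with the clone as a random block. With 1 array left out the counts ran from 111 to 261, 28 to 76, 11 to 32, 7 to 31 and 252 to 506. The cause of these shifts was not tested.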
